A study of Mus musculus with 14 samples.

Results

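The CCN genes encode a family of secreted matricellular proteins, which sit in the extracellular matrix and signal through cell surface receptors. Their levels were followed in mammary glands of ovariectomized mice given 17-beta-estradiol (E2), 1 of 4 blockers of estrogen receptors, or both. The members were Ccn1 (older symbol Cyr61), Ccn2 (Ctgf), Ccn3 (Nov), Ccn4 (Wisp1) and Ccn5 (Wisp2), found as the probe sets whose single annotated symbol is one of these names. They are 5 of the 18193 genes named on the arrays, and 10 of the 45037 probe sets tested. Each gene is given by the brightest of its probe sets, by the mean of all 14 arrays. The family was selected on its differences between E2 and vehicle and between E2+acolbifene and E2, so those values are given below as a description with no test.

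Ccn1 and Ccn2 are ligands of integrins and of heparan sulfate proteoglycans, and they are transcribed soon after serum, growth factor or mechanical stimulation. Both are classical targets of the coactivators YAP and TAZ, which are held back by the Hippo kinases and act on DNA through TEAD factors, and Ccn2 is also a target of TGF-beta. Ccn3 opposes Ccn2 in several cell systems, Ccn4 was found as a gene induced by Wnt1, and Ccn5 lacks the carboxy-terminal cystine knot domain of the other members and is induced by estrogen in human breast cancer cells.

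All animals were female C57BL/6 mice that arrived at an age of 11 to 12 weeks, were acclimatised for 1 week, and had the ovaries removed 7 days before treatment. Glands were taken 3 h after treatment and pooled within a group, which the labels put at 8 mice. The groups were E2+acolbifene with 2 arrays, E2+fulvestrant, E2+raloxifene and E2+tamoxifen with 1 array each, E2 with 2 arrays, acolbifene with 2 arrays, fulvestrant, raloxifene and tamoxifen with 1 array each, and vehicle with 2 arrays. Acolbifene (given as EM-652.HCl), raloxifene and tamoxifen (given as the citrate) are nonsteroidal ligands of estrogen receptors, and fulvestrant is a steroidal one. Doses of the blockers are not known from the labels, so values under different blockers are set side by side with no comparison of the compounds. Whole glands hold epithelium, adipocytes, fibroblasts, vessels and immune cells, and in pooled tissue fewer cells of a type and less RNA per cell cannot be told apart.

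Median log2 levels of the arrays ran from 7.16 to 7.23. Raw-file names carried the code R136 for E2 array 1 and for the 6 arrays without a replicate, and R137 for all others; the labels do not explain the code. Both arrays of each replicated group share the part of their raw-file name that follows the code, and nothing says that they came from separate pools. Every p-value thus reflects the variation from array to array, possibly only technical. The raloxifene array shares that part of its name with the 2 E2+acolbifene arrays; 280 and 237 probe sets differed by more than 1.5-fold between it and them, against 88 between it and the E2+raloxifene array and 94 between it and the tamoxifen array. Its label was followed. The skeletal muscle markers differed between the E2 arrays, with a median level of 8.68 on array 1 and 10.04 on array 2, and Actb, a control for RNA quality, was brighter at its 3' than at its 5' probe set by 0.41 and 0.43 on the E2 arrays, 0.25 to 0.41 on the blocker and combination arrays and 0.24 to 0.28 on the vehicle arrays. The part of either in the results was not tested.

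The promoter of Ccn1 is shown because Ccn1 had the widest range of levels in the family. It is the only 1 of the 5 members matched in the RefSeq promoter table (GRCm38.p6). The 250 bases before its start lie at chr3:145649986-145650235 on the minus strand and are written here 5′ to 3′ along the gene, with 3 motif matches in capitals.
Ccn1: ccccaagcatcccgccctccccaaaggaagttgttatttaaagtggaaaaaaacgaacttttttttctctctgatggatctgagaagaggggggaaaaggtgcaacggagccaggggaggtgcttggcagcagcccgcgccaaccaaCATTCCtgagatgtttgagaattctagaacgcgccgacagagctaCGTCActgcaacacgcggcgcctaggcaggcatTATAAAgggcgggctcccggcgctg
The first match is the TEAD site CATTCC, 103 to 98 bases before the start, which 12.6% of the 32851 promoters of the table hold on either strand. The second is the cAMP response element half-site TGACG, read on the other strand as CGTCA 58 to 54 bases before the start and held by 17.8% of promoters. The third is the TATA box TATAAA, 25 to 20 bases before the start and held by 12.4%. The matches do not overlap. The window held no match to the AP-1 site TGANTCA (6.75% of promoters), to the estrogen response element, an inverted repeat of GGTCA spaced by 3 bases (0.0639%), or to its half-site AGGTCA (14%), or to the CArG box (1.47%), all searched on both strands. A match is a description of the letters only.

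Ccn1, an integrin ligand known for roles in vessel growth and wound repair, was highest on the arrays with E2 alone and lowest on those with vehicle. Its log2 level was 10.01 and 9.85 with E2, against 8.16 and 7.96 with vehicle, a difference of 1.87 ± 0.12 (SE, n = 2 each) or 3.65-fold. Past the threshold of the fit were 3 of the 5 members, Ccn1, Ccn2 and Ccn5, all higher, and 3.74% of all probe sets; nothing is read from that count. The groups did not overlap, and either E2 array was above every other array in the series. With E2+acolbifene the level was 8.56 and 8.48, lower than with E2 (-1.41 on the log2 scale, 2.66-fold lower). The same 3 members were past the threshold there, all lower, and 3.66% of all probe sets were called. Ccn1 thus lay on the E2+acolbifene arrays below both E2 arrays and above both vehicle arrays. These differences are among the values that chose the family.

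With E2 and each of the other blockers, Ccn1 lay between E2 and vehicle. Its level was 9.25 with E2+fulvestrant, 8.90 with E2+raloxifene and 9.71 with E2+tamoxifen. Given alone, the blockers showed 8.44 and 8.16 with acolbifene, 8.54 with fulvestrant, 8.52 with raloxifene and 8.63 with tamoxifen. Acolbifene array 2 and vehicle array 1 had the same level to 2 decimals, so the acolbifene and vehicle groups adjoin.

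**Figure D1:**
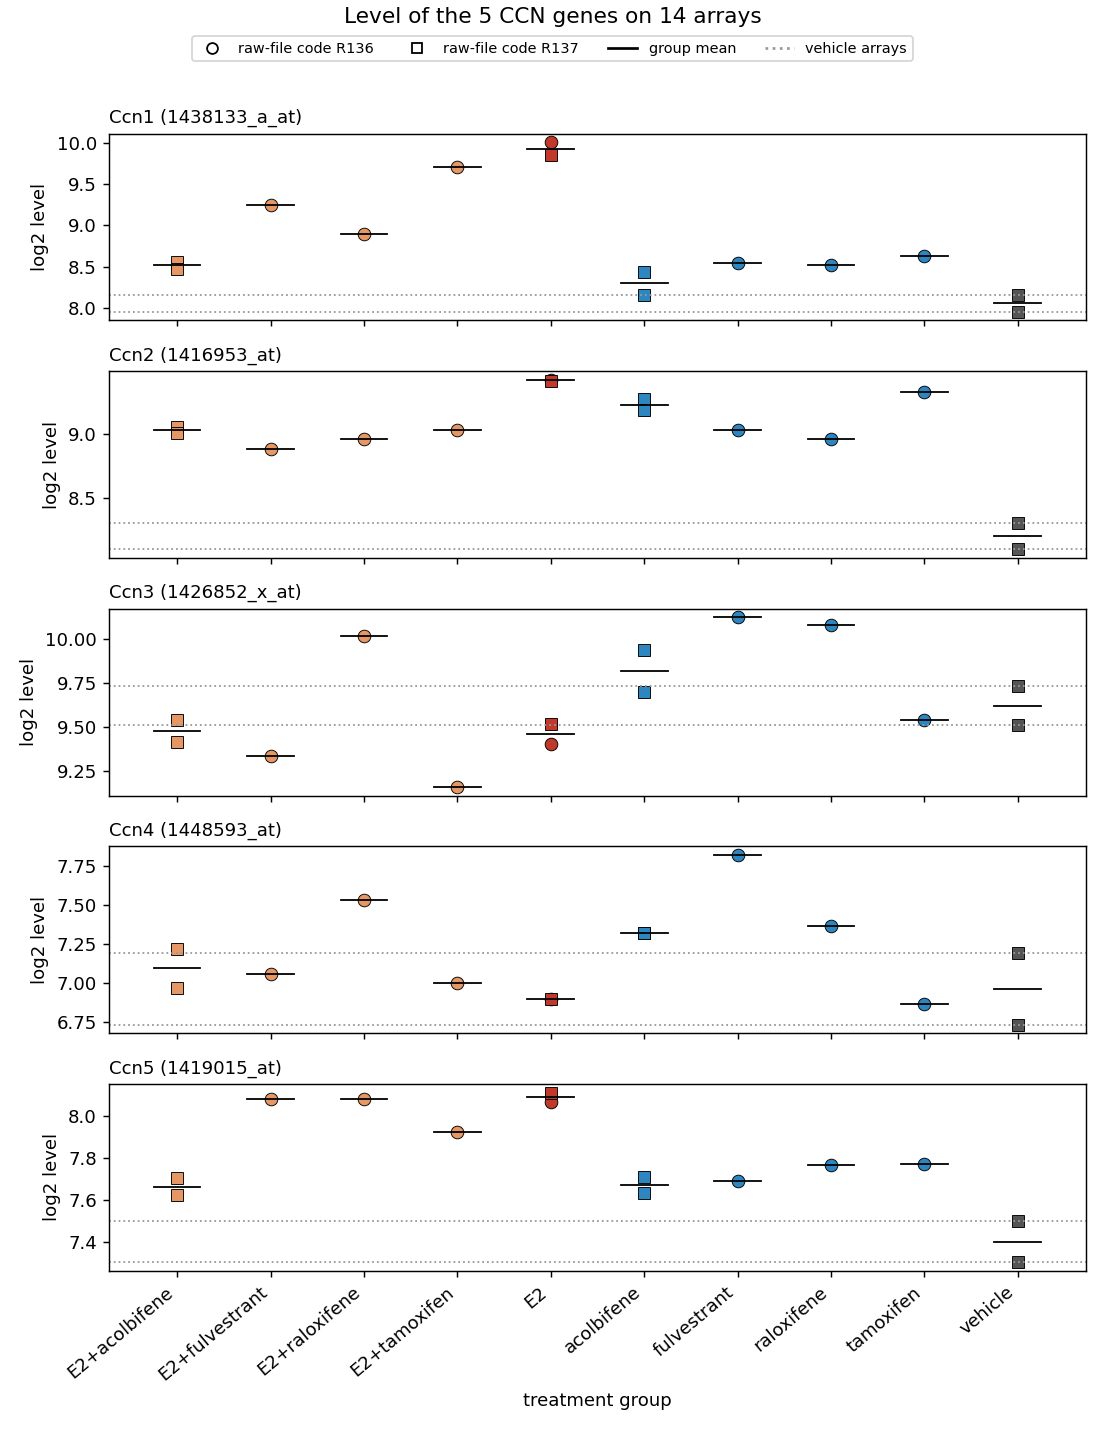
Log2 level of each CCN gene (y axes, one panel per gene, each with its own range) on the 14 arrays by treatment group (x axis). Points are arrays, circles with raw-file code R136 and squares with R137, short lines are group means, and dotted lines mark the 2 vehicle arrays; Ccn1 is highest with E2 (10.01 and 9.85), while Ccn2 is near 9 or above in every group but vehicle (8.11 and 8.31).

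Further comparisons asked whether Ccn1 still differed with E2 when a blocker was present. The E2+acolbifene arrays among them helped choose the family, through their difference from E2, and the others did not. The single E2+tamoxifen array differed by more than 1.5-fold from the vehicle arrays at 1801 and 2213 probe sets. For the tamoxifen array these counts were 562 and 580, and the E2+tamoxifen and tamoxifen arrays differed at 503. The part of this in the values was not tested. Over tamoxifen alone Ccn1 rose with E2+tamoxifen by 1.08 ± 0.16 on the log2 scale (SE, 1 array each, 95% interval 0.72 to 1.45, limma adjusted p = 0.045), or 2.12-fold. It was the 1 of the 5 members that passed in this comparison, in which 0.18% of all probe sets were called. The call was lost with robust variance moderation (limma adjusted p = 0.0501), and also without vehicle array 1, vehicle array 2, E2+acolbifene array 1 or E2+acolbifene array 2, arrays that enter only the estimate of the spread, with limma adjusted p from 0.04 to 0.0808 over the arrays left out. The other Ccn1 probe sets rose by 1.00, 1.08 and 1.30 in that comparison (limma adjusted p = 0.0181, 0.0264 and 0.0204). Of the markers, 2 of 10 keratinocyte genes and 1 of 9 luminal genes fell there, and their part was not tested.

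Over the other blockers the Ccn1 difference with E2 was smaller at the same probe set and did not pass. It was 0.71 ± 0.16 for E2+fulvestrant against fulvestrant (SE, 1 array each, limma adjusted p = 0.183), where none of the 5 members passed, beside 0.384% of all probe sets. Without adjustment 4 of the 5 passed, beside 7.37% of all probe sets. The Ccn1 difference passed with an intensity trend (limma adjusted p = 0.00888). For E2+raloxifene against raloxifene it was 0.38 ± 0.16 (limma adjusted p = 1), where again none of the 5 passed, beside 0.0333% of all probe sets, and without adjustment 2 did, beside 4.35%. For E2+acolbifene against acolbifene it was 0.22 ± 0.12 (SE, n = 2 each, limma adjusted p = 0.228), where none of the 5 passed, beside 9.2% of all probe sets, and without adjustment 1 did, beside 30.2%. That 9.2% was 4142 probe sets, and 1141 when the values were quantile normalized again.

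The 4 probe sets of Ccn1 gave the same direction for E2 against vehicle and differed in size. The probe set 1416039_x_at gave 9.99 and 9.71 with E2, against 7.86 and 7.83 with vehicle, a difference of 2.01. The dimmer probe sets 1442340_x_at and 1457823_at gave differences of 1.65 and 1.06 between E2 and vehicle. At 1416039_x_at, Ccn1 passed in 2 tested comparisons in which the main probe set did not. It rose by 1.00 with E2+fulvestrant over fulvestrant (limma adjusted p = 0.00852) and by 0.37 with E2+acolbifene over acolbifene (limma adjusted p = 0.0452). At 1442340_x_at Ccn1 also rose with E2+acolbifene over acolbifene, by 0.61 (limma adjusted p = 0.0169). The mean of that probe set, 6.47, was below the 40th percentile of mean level (6.65), where the size of a fold is not exact. Cell type markers moved in the same comparisons. With E2+fulvestrant over fulvestrant, 1 array each, the median difference was 0.98 for the 10 keratinocyte markers and -0.81 for the 10 skeletal muscle markers. With E2+acolbifene over acolbifene 5 of 10 keratinocyte markers rose (median 0.38) and 7 of 10 macrophage markers fell (median -0.47), where 9.2% of all probe sets were called. Their part in the Ccn1 values was not tested. The probe sets also disagreed on the blockers alone: relative to the vehicle mean, fulvestrant, raloxifene and tamoxifen were higher by 0.48, 0.46 and 0.57 at the main probe set, and differed by -0.01, 0.10 and -0.01 at 1457823_at.

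**Figure D2:**
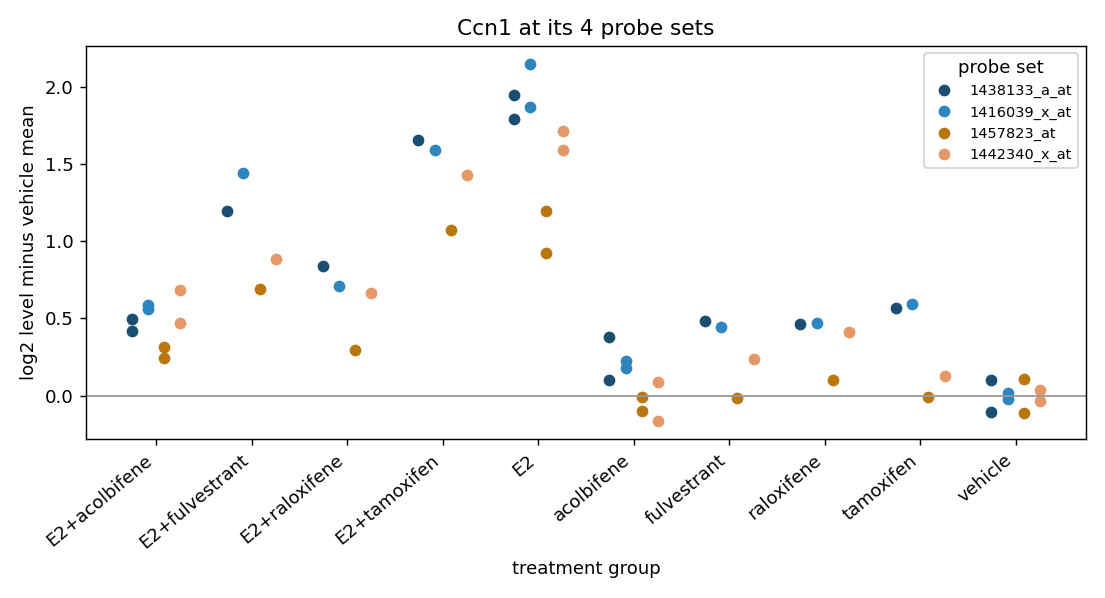
Log2 level of Ccn1 minus the vehicle mean of the same probe set (y axis) by treatment group (x axis), with one colour for each of the 4 probe sets and one point for each array. All 4 are highest with E2 or E2+tamoxifen, and for the blockers alone the 2 brighter probe sets (dark and light blue) lie above 0 while 1457823_at lies near 0.

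Ccn2, a matrix protein known as a driver of collagen production and scarring and as a partner of TGF-beta, had a different pattern: its levels with E2 and with every blocker lay well above those with vehicle. The level was 9.42 and 9.41 with E2, against 8.11 and 8.31 with vehicle, a difference of 1.20 ± 0.09 (SE, n = 2 each) or 2.3-fold. It was 9.05 and 9.00 with E2+acolbifene, a difference of -0.38 from E2. These values too helped choose the family. No array of any other group overlapped the vehicle arrays, and the lowest of them, E2+fulvestrant at 8.88, was above the higher vehicle array by more than the vehicle arrays differed from each other (0.21).

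The comparison of acolbifene with vehicle asked whether a blocker alone moved the gene. Ccn2 was at 9.26 and 9.18 with acolbifene, and rose over vehicle by 1.02 ± 0.09 on the log2 scale (SE, n = 2 each, 95% interval 0.81 to 1.22, limma adjusted p = 0.00152), or 2.02-fold. It was the 1 of 5 members that passed, against 0.597% of all probe sets called. This comparison uses the same 2 vehicle arrays as that of E2 with vehicle, so the low vehicle level of Ccn2 helped choose the family. The interval and the p-values, also those with an array left out, do not allow for that choice. Without any 1 of the 8 arrays the difference lay between 0.91 and 1.12 and the call was kept, with limma adjusted p from 0.0032 to 0.0302.

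Ccn2 was also higher with E2+acolbifene than with vehicle, by 0.82 ± 0.09 (SE, n = 2 each). This difference is the sum of the 2 differences that chose the family and is given without a test; Ccn2 was the 1 of 5 members past the threshold of the fit there, where 0.837% of all probe sets were called, and was not past it without E2+acolbifene array 1. The other blockers alone had 1 array each. Ccn2 was at 9.03 with fulvestrant, 8.96 with raloxifene and 9.32 with tamoxifen, all above both vehicle arrays.

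In the fit that includes the raw-file code, the differences of Ccn2 from vehicle were 0.81 ± 0.18 with fulvestrant, 0.74 ± 0.18 with raloxifene and 1.10 ± 0.18 with tamoxifen (SE, 1 array against 2, limma adjusted p = 0.348, 0.717 and 0.221). None of the 5 members passed in these 3 comparisons, beside 0.153%, 0.00888% and 0.0111% of all probe sets. Without adjustment 3, 2 and 2 of the 5 passed, beside 5.52%, 4.8% and 4.79% of all probe sets. Without the code term the Ccn2 differences were 0.82, 0.75 and 1.11 and passed (limma adjusted p = 0.0184, 0.0391 and 0.0039). These blocker arrays have the other raw-file code than the vehicle arrays, and only the E2 group holds both. The 2 E2 arrays, 1 of each code, were at 9.42 and 9.41 for Ccn2. All 3 comparisons use the same vehicle arrays as that of E2 with vehicle, so the low vehicle level of Ccn2 helped choose the family. Nothing is read from the calls of Ccn2 without the code term.

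With a blocker present, the Ccn2 level with E2 was at or below the level without it. The level with E2 minus the level without was -0.19 ± 0.09 over acolbifene (SE, n = 2 each, 95% interval -0.40 to 0.01, limma adjusted p = 0.19). With 1 array each it was -0.15 over fulvestrant, 0.00 over raloxifene and -0.29 over tamoxifen (SE 0.14 each, limma adjusted p = 0.937, 1 and 0.555). None of these passed, and the difference between them and the 1.20 over vehicle was not tested, since that value chose the family.

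**Figure D3:**
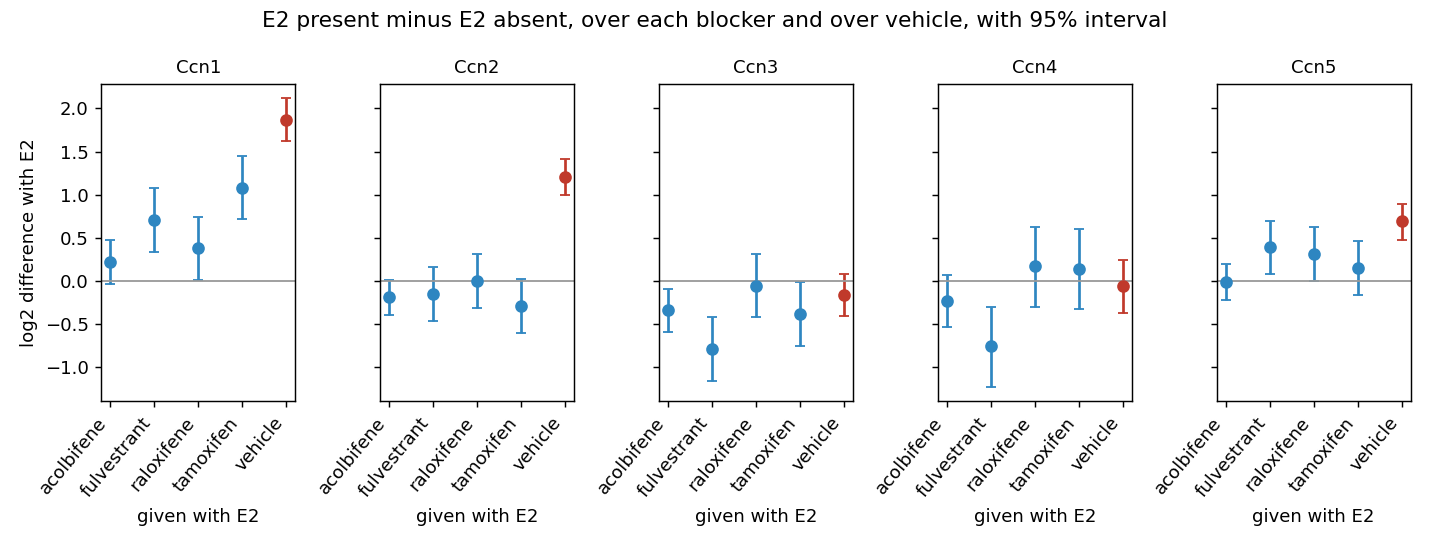
Log2 difference between the level with E2 and the level without it (y axis) for each CCN gene (panels), over acolbifene, fulvestrant, raloxifene, tamoxifen and vehicle (x axis). Bars are 95% intervals from limma, with 2 arrays a side over acolbifene and vehicle and 1 a side over the others; the differences over vehicle (red) are those that chose the family. The Ccn1 points lie above 0 over every blocker, with intervals that reach 0 over acolbifene, and the Ccn2 points lie at or below 0.

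Ccn5, the member without the cystine knot domain, followed Ccn1 in direction with a smaller range. Its level was 8.06 and 8.11 with E2, against 7.30 and 7.50 with vehicle, a difference of 0.69 ± 0.09 (SE, n = 2 each) or 1.61-fold. It was 7.70 and 7.62 with E2+acolbifene, a difference of -0.42 from E2. The E2 arrays stood clear of both other groups, and E2+acolbifene of vehicle; these values helped choose the family.

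With the other combinations Ccn5 lay nearer to its level with E2. Ccn5 was at 8.08 with E2+fulvestrant, 8.08 with E2+raloxifene and 7.92 with E2+tamoxifen. Against E2 its differences were 0.01 ± 0.14, 0.01 ± 0.14 and -0.14 ± 0.14 (SE), which rest on E2 array 1. For Ccn1 those differences were -0.76 ± 0.16, -1.11 ± 0.16 and -0.30 ± 0.16 (SE), and for Ccn2 they were -0.53, -0.46 and -0.39 (SE 0.14 each). The levels with E2 helped choose the family, so these differences are a description with no test. At the main probe sets 0 of the 5 members were past the threshold of the fit in E2+fulvestrant, E2+raloxifene and E2+tamoxifen against E2, beside 0.0222%, 0.0955% and 0.0133% of all probe sets, and nothing is read from that count.

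With the blockers alone Ccn5 was at 7.71 and 7.63 with acolbifene, 7.69 with fulvestrant, 7.76 with raloxifene and 7.77 with tamoxifen. Every one of these arrays was above both vehicle arrays, and none reached an E2 array. The difference between acolbifene and vehicle, 0.27 ± 0.09 (SE, n = 2 each), did not pass (limma adjusted p = 0.206). Over a blocker, E2 gave Ccn5 differences of -0.01 ± 0.09 with acolbifene (SE, n = 2 each), and 0.39, 0.31 and 0.15 with fulvestrant, raloxifene and tamoxifen (SE 0.14, 1 array each); none passed (limma adjusted p = 0.962, 0.512, 1 and 0.772).

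At the main probe sets of Ccn1, Ccn2 and Ccn5 all 12 other arrays lay above both vehicle arrays. This held for 2.48% of all probe sets, and the reverse, with all 12 below, for 3.76%. The vehicle, E2 and E2+acolbifene arrays helped choose the family, so this is a description and nothing is read from the 3 of 5 members. For Ccn1 the margin over vehicle array 1 was under 0.01 on acolbifene array 2, and 2 of its 4 probe sets did not show the feature: 7 of 12 arrays were above both vehicle arrays at 1457823_at, and 11 were above and 1 below at 1442340_x_at.

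Ccn3, which opposes Ccn2 in several cell systems, differed little between E2 and vehicle. Its level was 9.40 and 9.52 with E2, against 9.51 and 9.73 with vehicle, and the groups overlapped. It was 9.54 and 9.42 with E2+acolbifene, within the range of these arrays. It lay above both vehicle arrays at 10.13 with fulvestrant, 10.08 with raloxifene and 10.02 with E2+raloxifene, and acolbifene, at 9.94 and 9.70, overlapped vehicle. Tamoxifen, at 9.54, E2+fulvestrant, at 9.34, and E2+tamoxifen, at 9.16, were not among them.

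The Ccn3 differences did not pass in the fits as planned. Ccn3 was at 9.34 with E2+fulvestrant, against 10.13 with fulvestrant, a difference of -0.79 ± 0.16 (SE, 1 array each, 95% interval -1.16 to -0.42, limma adjusted p = 0.119), which passed with an intensity trend in the variance (limma adjusted p = 0.00145). The second probe set, 1426851_a_at, gave -0.91 (limma adjusted p = 0.105). With E2+acolbifene against acolbifene Ccn3 differed by -0.34 ± 0.11 (SE, n = 2 each, limma adjusted p = 0.0749), which passed with the trend and without dim probe sets (limma adjusted p = 0.0274 and 0.0488). At 1426851_a_at the same difference was 0.09 (limma adjusted p = 0.663), in the other direction. It was higher than vehicle by 0.50 with fulvestrant and by 0.46 with raloxifene as plain differences, and by 0.62 and 0.57 in the fit with the code term (limma adjusted p = 0.83 and 0.997).

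Ccn4, the member induced by Wnt1, was the member whose vehicle arrays were farthest apart. Its level was 6.90 and 6.90 with E2, against 7.20 and 6.73 with vehicle, and the E2 arrays lay between the vehicle arrays. It was 7.32 and 7.32 with acolbifene, 6.97 and 7.22 with E2+acolbifene, and highest with fulvestrant at 7.82. E2+raloxifene was at 7.53, raloxifene at 7.37, E2+fulvestrant at 7.06, E2+tamoxifen at 7.00 and tamoxifen at 6.87.

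At this probe set the Ccn4 differences did not pass. It was higher than vehicle by 0.86 ± 0.27 with fulvestrant (SE, 1 array against 2, limma adjusted p = 0.754) and by 0.36 ± 0.14 with acolbifene (SE, n = 2 each, limma adjusted p = 0.242). The second probe set, 1448594_at, was dim, with a mean of 6.00, below the 40th percentile of mean level (6.65), where the size of a fold is not exact. It passed in 3 comparisons: Ccn4 rose there with acolbifene over vehicle by 0.64 (6.22 and 6.19, against 5.64 and 5.48, limma adjusted p = 0.0211), rose with fulvestrant over vehicle by 1.40 in the fit and by 1.18 as a plain difference (6.75, against the same vehicle arrays, limma adjusted p = 0.0156), and fell with E2+acolbifene against acolbifene by 0.44 (5.71 and 5.82, against 6.22 and 6.19, limma adjusted p = 0.0324). The 2 probe sets had the same sign in these comparisons and differed on whether they passed.

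The fit values for fulvestrant against vehicle pass through the difference between the 2 E2 arrays, and skeletal muscle genes moved with that comparison. All 10 measured muscle markers were called higher with fulvestrant than with vehicle, with a median of 2.08 in the fit and of 0.74 between the arrays' medians. The median level of the fibroblast markers, 9 measured and none dim, differed from the vehicle mean by 0.15 with fulvestrant, -0.08 with raloxifene, 0.12 with E2+raloxifene and 0.19 with acolbifene. The medians of the differences of these markers in the fits against vehicle were 0.29 with fulvestrant, 0.16 with raloxifene and 0.15 with acolbifene. Their part in the Ccn3 and Ccn4 values was not tested.

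The order of the group means was read against the pooled SD of the replicate pairs for each gene. Ccn1 ran from E2 through E2+tamoxifen, E2+fulvestrant, E2+raloxifene, tamoxifen, fulvestrant, raloxifene, E2+acolbifene and acolbifene to vehicle; 6 of the 9 steps were larger than that SD (0.14), and the 3 steps among tamoxifen, fulvestrant, raloxifene and E2+acolbifene were within it. Ccn2 ran from E2 through tamoxifen, acolbifene, fulvestrant, E2+acolbifene, E2+tamoxifen, raloxifene, E2+raloxifene and E2+fulvestrant to vehicle, with 4 of 9 steps larger than the SD (0.08), and its last step, to vehicle, was 0.68. For Ccn5, E2 was highest and vehicle lowest, and 3 of 9 steps were larger than the SD (0.08). Ccn3 and Ccn4 were highest with fulvestrant, and 3 and 2 of their 9 steps were larger than the SD (0.13 and 0.19).

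Across the 14 arrays Ccn1 and Ccn5 had the highest correlation of any pair of members, with a Pearson r of 0.84 (Spearman 0.89), and of 0.68 and 0.89 within the 7 arrays of code R136 and the 7 of code R137. Ccn1 and Ccn2 had an r of 0.55, with 0.35 and 0.62 within the codes. Ccn3 and Ccn4 had an r of 0.70, with 0.85 within code R136 and 0.18 within code R137. These correlations are a description over arrays that share groups, pools and normalization.

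**Figure D4:**
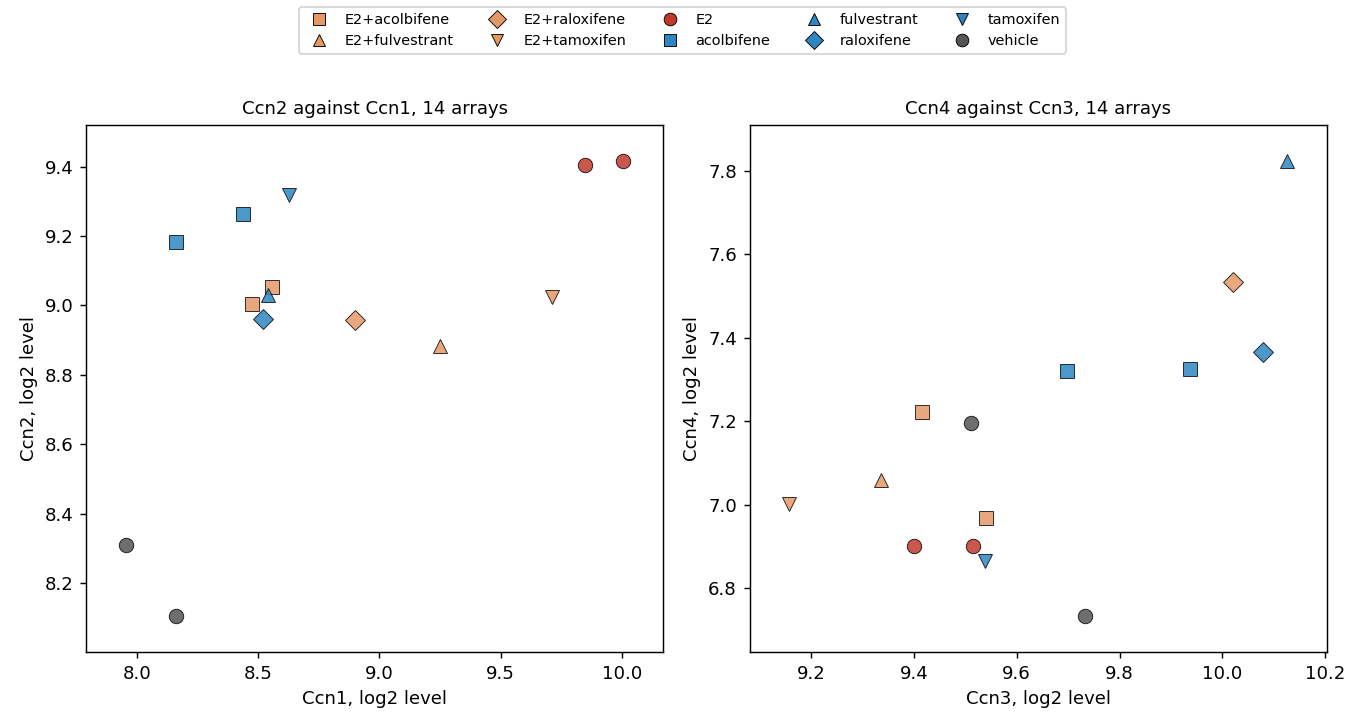
Log2 levels of Ccn2 against Ccn1 (left) and of Ccn4 against Ccn3 (right) on the 14 arrays, with colour and shape for the treatment group. On the left the vehicle arrays lie apart at low Ccn2 (8.11 and 8.31) and the E2 arrays at high Ccn1 and Ccn2; on the right fulvestrant, E2+raloxifene and raloxifene lie at the upper end of Ccn3 (10.13, 10.02 and 10.08).

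Among 13312 genes at or above the 40th percentile of mean level, those with patterns most like Ccn1 by Pearson r over the 14 arrays were Mad2l1 (0.98), Tmem86a (0.96), Spint1 (0.96), Jdp2 (0.96) and Apc (0.95). Each kept an r of 0.92 or more within both raw-file codes. Those most like Ccn2 were Cebpd (0.92), Cdkn1a (0.91), Ube2h (0.91), Gpr182 (0.89) and Hspa1b (0.88), and their r fell to between 0.49 and 0.75 within code R136, which has no vehicle array. For Ccn5 they were Shb (0.94), Palld (0.94), Ehd1 (0.93), Irak3 (0.93) and Lcorl (0.93). Ccn3 was most like Mfap5 (0.96), Fap (0.94), Timp1 (0.93), Cthrc1 (0.93) and Sfrp2 (0.92), and Ccn4 most like Mmp23 (0.94), Olfml3 (0.89), Epb41l3 (0.89), Ndrg4 (0.88) and Slc16a3 (0.86). All are given as a likeness of levels only.

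The other genes of the pathways that act on or through CCN proteins were taken as lists. These and the marker lists were chosen with earlier results of these data known. Their counts and adjusted p are thus a description, and no excess over all probe sets is read from them. Of 20 other measured YAP/TEAD targets, 2 were higher with E2 than with vehicle and none lower, with a median difference of 0.00 against -0.02 over all probe sets, where 2.07% were called higher. The 2 were F3, tissue factor (2.27 ± 0.14, limma adjusted p = 7.4e-06), and Gadd45a, a stress response gene (1.20 ± 0.12, limma adjusted p = 0.000345). Ankrd1 and Amotl2, a pair of widely used YAP targets, differed by 0.13 and -0.19 (limma adjusted p = 0.586 and 0.279). Of the 20 targets 3 were dim, Ankrd1 among them, at 5.84 with E2 and 5.71 with vehicle. Little can be read from its small difference. With E2+acolbifene against E2, F3 fell by 1.45 and Gadd45a by 0.96 (limma adjusted p = 0.000879 and 0.00427), 2 of 20 lower and none higher, where 2.03% of all probe sets were called lower. With 1 array each, F3 was also higher with E2+tamoxifen than with tamoxifen, by 1.18, and with E2+fulvestrant than with fulvestrant, by 2.38. The medians of the 20 targets in these comparisons were 0.01 and -0.08. The marker changes given above for these comparisons apply to F3 as well, and their part was not tested.

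Hippo components were taken next, beside 3.74% of all probe sets called with E2 against vehicle and 0.597% with acolbifene against vehicle. With E2 against vehicle 1 of 16 was called, a share near that of all probe sets: Tead2, a DNA-binding partner of YAP (0.43, limma adjusted p = 0.0246), while Yap1 and Wwtr1, the genes of YAP and TAZ, differed by 0.04 and 0.13 (limma adjusted p = 0.851 and 0.559). With acolbifene against vehicle, where Ccn2 rose, 1 of 16 was called, Tead1 (0.63, limma adjusted p = 0.0393), and none of the 20 YAP/TEAD targets (median 0.06); F3 differed there by 0.07 (limma adjusted p = 0.848). A further list held 16 genes of SRF, its MRTF coactivators and their targets, which also act on Ccn1 and Ccn2. With E2 against vehicle 1 of the 16 was called, the coactivator gene Mrtfa, which fell by 0.35 (limma adjusted p = 0.0469), and with acolbifene against vehicle none was. None of 15 TGF-beta pathway genes was called in either comparison, with medians of -0.09 and 0.13.

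Immediate-early genes are transcribed, like Ccn1, soon after a stimulus. This list, too, was chosen with earlier results known, so no excess is read from its counts. With E2 against vehicle 9 of 24 were higher, where 2.07% of all probe sets were, and none lower, with a median of 0.25. Among them were Junb (1.02), Fosl2 (0.92), Egr1 (0.52) and Fos (0.51), with limma adjusted p of 0.000268, 0.00097, 0.0223 and 0.0167. With E2+acolbifene against E2, 9 of 24 were lower, where 2.03% of all probe sets were, and 1 was higher. With acolbifene against vehicle 1 of 24 was called, where 0.597% of all probe sets were, the phosphatase gene Dusp1 (0.45, limma adjusted p = 0.0473), while Fos differed by 0.00 and Egr1 by -0.14 (limma adjusted p = 0.994 and 0.56).

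Of 17 other measured matricellular genes, Thbs1 and Thbs2, the thrombospondins 1 and 2, were higher with E2 than with vehicle, by 1.29 and 1.00 (limma adjusted p = 7.57e-05 and 0.000484), and none was lower, where 2.07% of all probe sets were called higher. With acolbifene against vehicle, where 0.597% of all probe sets were called, 3 of 17 rose: Thbs1 by 1.13 (limma adjusted p = 0.00152), Tnc, which encodes tenascin C, by 0.98 (limma adjusted p = 0.0109) and Thbs4 by 0.67 (limma adjusted p = 0.0224). Thbs1, like Ccn2, was thus called both with E2 and with acolbifene, in comparisons that share the vehicle arrays. With E2+acolbifene against acolbifene 5 of 17 fell and none rose, among them Tnc by 0.94 and Thbs1 by 0.53 (limma adjusted p = 0.00871 and 0.0208), where 5.67% of all probe sets were called lower. With fulvestrant against vehicle, 1 array against 2, Tnc and Thbs1 were higher by 1.49 and 1.29 in the fit. As plain differences these were 0.98 and 1.15, since the fit values pass through the difference between the 2 E2 arrays.

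Of 14 measured receptors of CCN proteins, 1 was called with E2 against vehicle, where 3.74% of all probe sets were, the integrin subunit gene Itgb3, higher by 0.48 (limma adjusted p = 0.0205). Itgav and Itgb5, which pair as a receptor of Ccn1, differed by 0.13 and -0.04 (limma adjusted p = 0.423 and 0.862). With acolbifene against vehicle, where 0.597% of all probe sets were called, 2 of 14 rose, Itgam by 0.77 and Itga5 by 0.49 (limma adjusted p = 0.0269 and 0.0353). Itgam is also a gene of macrophages. The median level of the 10 macrophage markers differed from the vehicle mean by 0.22 with acolbifene and -0.36 with E2. The medians of the differences of the single markers were 0.26 and -0.14. With E2+acolbifene against acolbifene 6 of 14 receptors fell and none rose, among them Itgam by 1.02 and Itgb2 by 0.55 (limma adjusted p = 0.0054 and 0.0112), and 7 of the 10 macrophage markers fell as well, where 5.67% of all probe sets were called lower.

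Markers of cell types that could carry CCN transcripts were followed by their median level. Relative to the vehicle mean, the E2 arrays differed by -0.07 for the 9 fibroblast markers, -0.13 for the 10 endothelial markers and 0.40 for the 10 markers of basal epithelium and smooth muscle, 1 of which was dim. For the 9 luminal markers the difference was -0.11. With E2 against vehicle, where 3.74% of all probe sets were called, 3 of the 10 basal markers rose (Krt14 by 0.65, Trp63 by 0.64 and Krt5 by 0.48). Of the luminal markers Foxa1, Gata3 and Cldn3 fell (-1.52, -0.84 and -0.55) and Cldn4 rose (0.91). On the acolbifene arrays the same 4 lists differed by 0.19, -0.02, -0.04 and 0.26. Their part in the Ccn1, Ccn2 and Ccn5 values was not tested.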

How the data were processed

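The deposited values are log2 expression levels of 14 Affymetrix arrays, made by the authors with RMA, per the submitters' processing notes (background correction, quantile normalization between arrays and summary per probe set); its version is not stated. RMA compresses weak signals, so folds of dim probe sets are understated. The design text names U74Av2 arrays, whereas the 45101 probe sets are those of the Mouse Genome 430 2.0 array; genes were named through the platform annotation of that table. After 64 control probe sets were left out, 34945 of 45037 had 1 symbol, 932 several and 9160 were unnamed here. Each array used 20 ug of RNA, per the labels' protocols.

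Tests used lmFit and eBayes of limma 3.58.1 (R 4.3.3), with Benjamini-Hochberg adjusted p computed over the whole set of 45037 and called under 0.05; the procedure was first tested on simulated data. The 5 comparisons within the replicated groups used their 8 arrays with 4 residual degrees of freedom. The other 9 used all 14 arrays, with a term for the raw-file code and 3 residual degrees of freedom; an array without a replicate was assumed to vary like the replicated groups, and so few arrays set the precision. There, comparisons with vehicle depend on the 2 E2 arrays, since no other group has both codes, and comparisons with E2 rest on E2 array 1. Intervals are 95% intervals of the same fits, and a plain difference is one of group means.

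The 5 members and the 7 pathway and 8 marker lists (198 of 206 genes measured, the rest not analysed here) were chosen with earlier results of these data known. From the lists, genes set by rule and up to 3 called members in each direction per comparison could be named, each by its brightest probe set. Alternatives were an intensity trend, robust moderation, removal of dim probe sets, a second quantile normalization, a replicate block, the code term added or dropped, other probe sets and leaving out each replicate.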

Additional observations from a re-analysis of the deposited data

Results flagged for a closer look

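Ccn2 was the member for which the difference with E2 was above 0 over vehicle and at or below 0 over each blocker. None of the differences over a blocker passed. Without a blocker, E2 minus vehicle was 1.20 on the log2 scale, and the 4 pairings of arrays lay between 1.09 and 1.31. Over acolbifene, E2+acolbifene minus acolbifene was -0.194, and the 4 pairings lay between -0.259 and -0.129. The pairings reuse the same arrays and are not replicates. With 1 array each, the Ccn2 difference was -0.147 over fulvestrant, -0.0019 over raloxifene and -0.294 over tamoxifen; the value over raloxifene is close to 0. The contrast between these values and that over vehicle was not tested, because the value over vehicle was known when the genes were chosen, and no cause was tested.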

How the results depend on the processing

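No member's difference reversed among those past the threshold. A difference was counted as kept when it stayed on the same side of the threshold. The differences that chose the family were instead counted as kept when they moved by no more than the pooled SD of the replicate pairs. With leave-one-out 504 of 515 member differences were kept, with other settings 359 of 375, and with other probe sets 53 of 70. Most member differences did not pass in the main fit, so for them kept means still not passing. Combinations with fulvestrant, raloxifene or tamoxifen, against the blocker or E2, had 1 value in every leave-one-out fit, since the arrays left out did not set it. These counts are thus no measure of robustness. Differences that did not pass could change sign within these counts. Ccn4 in E2+acolbifene against vehicle lay between -0.10 and 0.36 with leave-one-out. Ccn3 in E2+acolbifene against acolbifene was -0.34 at the main probe set and 0.09 at the other. The cause of the changes below was not tested. Member values against E2 and in E2+acolbifene against vehicle are a description. Where a member is said to pass there, it was past the threshold of the fit and no test is read. Comparisons of Ccn2 with vehicle share the vehicle arrays that helped choose the family.

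With an intensity trend the probe sets called were 1437 (acolbifene against vehicle), 1733 (E2+acolbifene against vehicle), 7219 (E2+acolbifene against acolbifene), 2720 (E2 against vehicle), 3030 (E2+acolbifene against E2), 232, 116 and 96 (fulvestrant, raloxifene and tamoxifen against vehicle), 727, 72 and 737 (E2 with each against it alone), and 88, 381 and 650 (against E2). Ccn1 then passed at 0.46 in E2+acolbifene against vehicle, 0.71 in E2+fulvestrant against fulvestrant, and -0.76 and -1.11 in E2+fulvestrant and E2+raloxifene against E2, Ccn2 at 0.81 and 1.10 with fulvestrant and tamoxifen against vehicle, and Ccn3 at -0.34 in E2+acolbifene against acolbifene, -0.79 in E2+fulvestrant against fulvestrant and 0.62 in E2+raloxifene against E2. Robust moderation lost Ccn1 in E2+tamoxifen against tamoxifen (1.08). Without dim probe sets the counts were 706 and 630 (acolbifene and E2+acolbifene against vehicle), 13 and 13 (raloxifene and tamoxifen against vehicle), 270 (E2+fulvestrant against fulvestrant), 18 and 94 (E2+fulvestrant and E2+raloxifene against E2), and Ccn1 passed at -1.11 in E2+raloxifene against E2 and Ccn3 at -0.34 in E2+acolbifene against acolbifene. A second quantile normalization gave 1141 for E2+acolbifene against acolbifene, 1034 for E2+acolbifene against E2 and 0 for E2+tamoxifen against E2, where limma called 6 before and 6479 without adjustment.

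Replicate numbers did not pair the samples (r between -0.12 and 0.12 over probe sets), and a replicate block gave 2303 for E2+acolbifene against acolbifene and 1002 for E2+acolbifene against E2. The code as a term among the 8 arrays gave 479 for E2 against vehicle and 284 for E2+acolbifene against E2. Without it among the 14, counts were 153, 90 and 74 (fulvestrant, raloxifene and tamoxifen against vehicle), 2 (E2+raloxifene against raloxifene), 85 and 1453 (E2+raloxifene and E2+tamoxifen against E2); Ccn2 passed at 0.82, 0.75 and 1.11 with these 3 blockers against vehicle, and Ccn1 at -1.03 in E2+raloxifene against E2.

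Other Ccn1 probe sets gave 2.01, 1.06 and 1.65 for E2 against vehicle, -0.78 and -1.07 for E2+acolbifene against E2, 0.57 and 0.58 with E2+acolbifene against vehicle, 0.37 and 0.61 with E2+acolbifene against acolbifene, 1.00 for E2+fulvestrant against fulvestrant and -1.44 for E2+raloxifene against E2.

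Leaving out each replicate moved the counts to 27 to 194 (acolbifene against vehicle), 34 to 409 (E2+acolbifene against vehicle), 38 to 3367 (E2+acolbifene against acolbifene), 430 to 1615 (E2 against vehicle), 116 to 1481 (E2+acolbifene against E2), 6 to 10, 28 to 43 and 0 to 6 (E2+fulvestrant, E2+raloxifene and E2+tamoxifen against E2), 2 to 15 (E2+raloxifene against raloxifene) and 40 to 81 (E2+tamoxifen against tamoxifen). Ccn1 in E2+tamoxifen against tamoxifen stayed at 1.08, Ccn2 lay between 1.10 and 1.31 for E2 against vehicle and, with E2+acolbifene against vehicle, between 0.72 and 0.92. Without either E2 array the blockers alone could not be set against vehicle, nor, without array 1, their combinations against E2.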

Other observations

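Ccn6, the remaining gene of the family and not among the 5, was measured by 1 probe set that was dim on all 14 arrays, with log2 levels between 4.93 and 5.25. It was at 4.93 and 4.94 with E2, against 5.18 and 5.08 with vehicle.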
